A study of Homo sapiens with 12 samples.

Results

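The genes described here encode 35 proteins of the centromere and the kinetochore, and their rows were taken by symbol from a table of read counts for 62069 genes in 12 RNA-seq libraries. All 35 were found, and all 35 were among the 15284 genes that passed the filter on low counts. The libraries were made from the fibroblast line IMR90 ER:RAS, of human lung, which carries RAS fused to a hormone-binding domain of the estrogen receptor. The drug 4-hydroxytamoxifen (4OHT) switches this RAS on, and the cells then enter oncogene-induced senescence (OIS). There were 4 groups of 3 libraries, all at passage 13 and day 5 of the time course: non-induced cells without 4OHT, induced cells given 100 nM 4OHT, and induced cells that in addition expressed an shRNA against XPO7, the nuclear transport receptor exportin 7, named shXPO7_3 or shXPO7_5. According to the study, the first pair of groups carried a vector in place of an XPO7 shRNA. Both shRNAs were measured with 4OHT only, so an effect of XPO7 depletion without RAS cannot be told apart from one that needs it. Nothing in the labels states that the 3 libraries of each group were independent cultures, so the error behind every p-value is that between libraries and may be only technical.

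The centromere is the stretch of each chromosome where the histone H3 variant CENP-A replaces ordinary H3. On this chromatin sits the kinetochore, a layered protein machine: an inner layer that stays on the centromere through the cycle (the constitutive centromere-associated network), an outer layer in which the MIS12 complex bridges to the NDC80 complex, which grips microtubules, and a fibrous corona with motors. The chromosomal passenger complex corrects wrong attachments, and the spindle checkpoint delays anaphase until every kinetochore is attached. Many genes of this machine are transcribed mainly in late S, G2 and M phase, while others are needed outside mitosis as well and are expressed throughout the cycle.

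Total counts ran from 28534141 to 60397769 per library. XPO7 itself was at 126.8, 143.8 and 139.3 CPM (read counts scaled to library size) in the induced libraries, 26.4, 28.7 and 27.9 with shXPO7_3 and 50.8, 54.00 and 51.8 with shXPO7_5. Its log2 fold changes against induced cells were -2.30 and -1.39, with adjusted p of 1.24e-08 and 3.27e-06 in edgeR's quasi-likelihood test. Values are listed here and in what follows by the replicate letter of the labels, T, A and C for non-induced cells and T, A and B for the other groups. The proliferation marker MKI67 was at 279.9, 250.2 and 280.4 CPM in non-induced and 26.8, 30.3 and 25.5 CPM in induced libraries. The 8 fibroblast markers summed to between 24016 and 27880 CPM in non-induced, 16696 and 18154 CPM in induced and 17395 and 21791 CPM in shRNA libraries, while 4 epithelial markers stayed at or under 1.24 CPM in sum, 3 endothelial markers at or under 4.17 CPM and 3 leukocyte markers at or under 0.683 CPM.

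The first comparison, induced against non-induced cells, asks how the centromere and kinetochore genes changed in OIS. Of the 35 genes, 31 fell and 0 rose at an adjusted p under 0.05 in edgeR's quasi-likelihood test, and 0 were higher at an unadjusted p under 0.05 or in DESeq2. The test called 26.1% of all genes tested lower. The median log2 fold change of the 35 was −1.71, against −0.0068 over all genes tested. The falls were graded: 17 genes were lower by more than 2 on the log2 scale, a size reached by 3.13% of all genes, 6 by 1 to 2, 5 by 0.5 to 1, and 6 by less than 0.5. Only SPDL1 had a higher fitted level in induced cells, and its change did not pass the test. In 32 genes every induced library lay below every non-induced one, against 31.4% of all genes. With 3 libraries against 3 the exact two-sided permutation test gives 0.1 for such a gene, the smallest p it allows. In bulk RNA, fewer cycling cells and less of these transcripts per cell cannot be told apart. All 7 genes of a proliferation list (MKI67, TOP2A, PCNA, MCM2, CCNA2, CCNB1 and CDK1) fell in the same comparison, with a median of −2.67, and 5 of the 8 fibroblast markers were also called lower, with a median of −0.51. The part of these changes in the fall of the kinetochore genes was not tested.

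**Figure D1:**
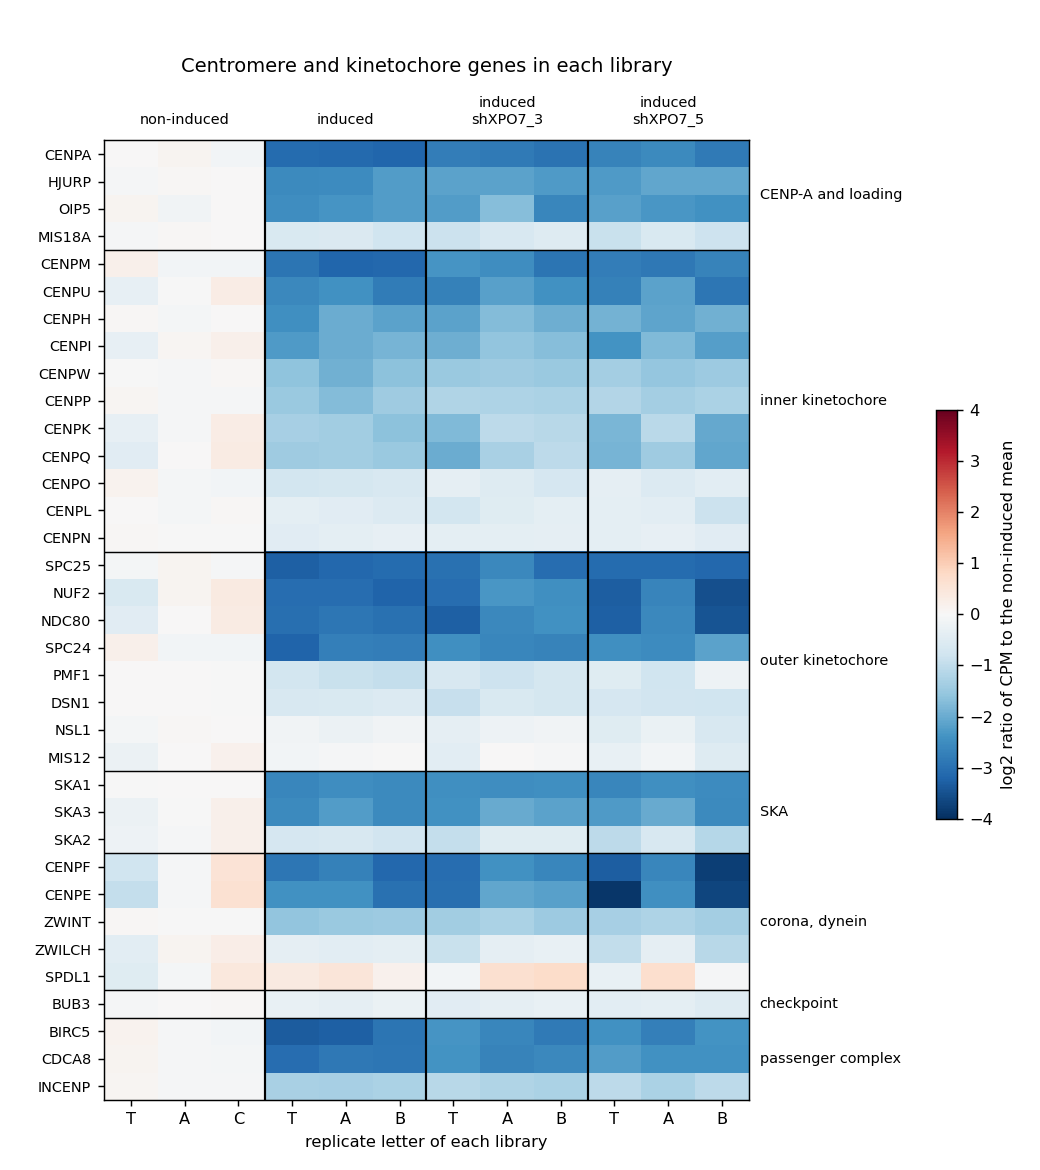
Heat map of the 35 genes (rows, grouped by role) in the 12 libraries (columns, by replicate letter within the 4 groups), with colour for the log2 ratio of CPM to the mean of the non-induced libraries. The 9 columns of 4OHT-treated cells are blue in most rows, and the rows of MIS12, NSL1, ZWILCH and SPDL1 stay pale in many of them.

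In the layer that defines the centromere, 4 of 4 genes fell, with a median of −2.38. CENPA, the centromeric histone H3 variant, was at 12.1, 13.02 and 11.1 CPM in non-induced libraries and at 1.42, 1.38 and 1.35 CPM in induced ones. The groups were far apart, and the log2 fold change was -3.12 ± 0.11 (SE), with an adjusted p of 4.94e-10. HJURP, the chaperone that brings new CENP-A to the centromere and the gene of this layer with the highest level per length over all libraries (in the 3 groups given 4OHT, MIS18A was higher), went from 46.9, 50.01 and 48.9 to 8.36, 8.58 and 10.3 CPM, a log2 fold change of -2.42 ± 0.10. OIP5, a subunit of the MIS18 complex that licenses the loading, fell by 2.34 on the log2 scale. MIS18A, another subunit of that complex, fell by only 0.67 ± 0.11, with an adjusted p of 0.000241. The falls of CENPA and HJURP were larger than that of MIS18A, and differences between genes, here and in what follows, were not tested.

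All 11 inner kinetochore genes fell, with a median of −1.53 and a range from −3.06 to −0.39. The subunits of 1 assembly did not fall alike. In the assembly of CENP-H, I, K and M, the log2 fold change was -3.06 for CENPM, -2.19 for CENPH, -2.02 for CENPI and -1.45 for CENPK. CENPM was at 8.44, 6.68 and 6.69 CPM in non-induced and 0.956, 0.815 and 0.827 CPM in induced libraries, so every induced library held less than 1 CPM of it. CENPL and CENPN, whose products pair and of which CENP-N binds CENP-A nucleosomes, showed the smallest falls of this layer, -0.46 ± 0.12 and -0.39 ± 0.07. In the assembly of CENP-O, P, Q and U, CENPU had a log2 fold change of -2.61, CENPP of -1.53, CENPQ of -1.44 and CENPO of -0.70. CENPW, a histone-fold partner of CENP-T and the inner kinetochore gene with the highest level per length over all libraries (in the 3 groups given 4OHT, CENPO and CENPN were higher), went from 13.1, 13.1 and 13.97 to 4.35, 3.54 and 4.34 CPM, a log2 fold change of -1.71 ± 0.10.

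The outer kinetochore split by complex. The NDC80 complex is a rod of 4 subunits: NDC80 and NUF2 hold the microtubule end, and SPC24 and SPC25 the end that docks on the MIS12 complex. All 4 fell, with log2 fold changes from −3.16 to −2.88, and 3 of them were among the 6 genes with the largest falls. SPC25 was at 10.3, 11.8 and 10.6 CPM in non-induced and 1.12, 1.24 and 1.29 CPM in induced libraries, a log2 fold change of -3.16 ± 0.13 with an adjusted p of 1.55e-09. NUF2 went from 11.99, 19.5 and 23.1 to 2.21, 2.20 and 1.98 CPM, with -3.10 ± 0.27. NDC80 went from 20.3, 28.03 and 35.1 to 3.42, 3.72 and 3.49 CPM, with -2.98 ± 0.26. Non-induced replicate T was the lowest and replicate C the highest for both NUF2 and NDC80, but all 3 lay several times above the induced libraries.

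The MIS12 complex, the platform on which the NDC80 complex docks, changed far less. DSN1, its subunit with the highest level per length, went from 23.1, 22.8 and 22.2 to 14.7, 14.9 and 15.5 CPM, a log2 fold change of -0.59 ± 0.08 with an adjusted p of 7.82e-05. PMF1 fell by 0.86 ± 0.13. MIS12 was at 14.1, 16.7 and 18.4 CPM in non-induced and 15.1, 15.8 and 16.1 CPM in induced libraries, and these ranges overlapped. Its log2 fold change was -0.07, with a 95% interval from −0.36 to 0.23 and an adjusted p of 0.714. NSL1 was at 22.6, 25.1 and 24.4 CPM against 21.9, 20.3 and 21.8 CPM, groups that did not overlap but lay close, and its -0.17 ± 0.10 did not pass the test at an adjusted p of 0.164. The 95% intervals of the NDC80 complex genes ended at −2.40 or lower, and those of the MIS12 complex genes began at −1.14 or higher. Per length, the mean over the 4 NDC80 complex subunits was 6.41 ± 0.762 CPM per kb of exon (SD, n = 3) in non-induced and 0.793 ± 0.0537 in induced libraries, while the mean over the 4 MIS12 complex subunits was 5.71 ± 0.202 and 4.40 ± 0.0792. The ratio of the first to the second was 1.02, 1.12 and 1.22 in the non-induced libraries and 0.167, 0.195 and 0.180 in the induced ones. This ratio was chosen after the values were seen and is given without a test. Without PMF1, which has a readthrough partner that could share its reads, it was 0.912, 0.992 and 1.07 against 0.142, 0.164 and 0.150.

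**Figure D2:**
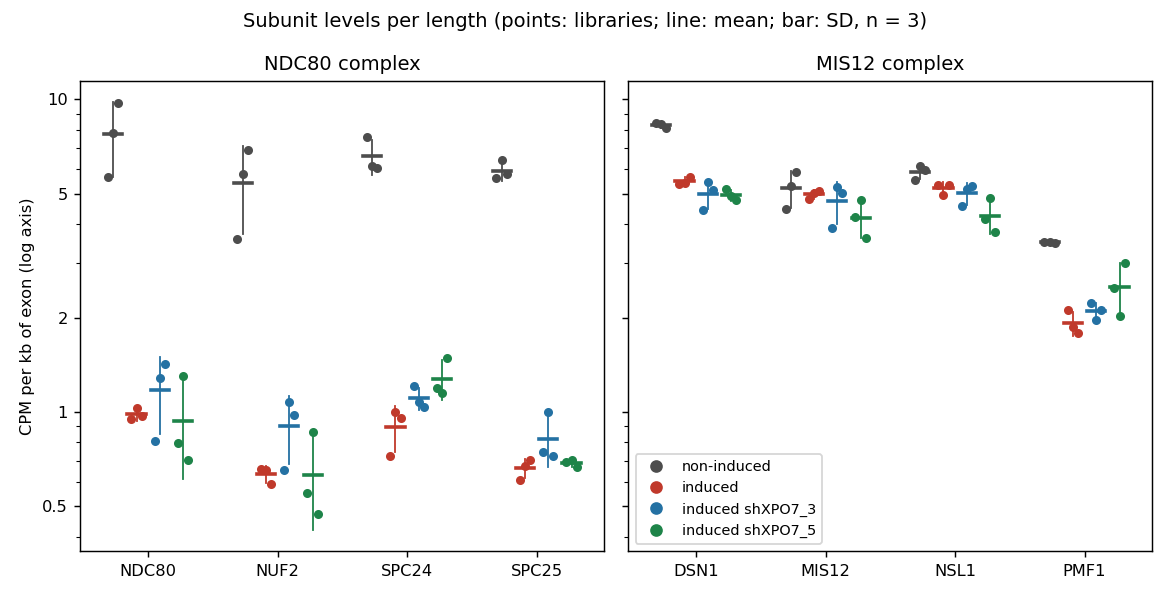
Levels per length, in CPM per kb of exon on a log axis, of the 4 subunits of the NDC80 complex and the 4 of the MIS12 complex, with a point for each library, a line for the mean and a bar for the SD in each of the 4 groups. The ranges of the complexes overlap in non-induced cells, and in the 3 groups given 4OHT every NDC80 complex point lies below every MIS12 complex point, of which those of PMF1 are the nearest.

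In the SKA complex, which helps the NDC80 complex to follow shortening microtubules, 3 of 3 genes fell. SKA1 changed by -2.55 ± 0.08 and SKA3 by -2.44 ± 0.16. SKA2, at 40.1, 44.2 and 52.8 CPM in non-induced and 28.8, 29.6 and 26.7 CPM in induced libraries, changed by -0.69 ± 0.15. SKA2 was the SKA gene with the highest level per length in both groups.

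Of 5 genes of the corona and of dynein recruitment, 3 fell. CENPF, a large coiled-coil protein of the corona, and CENPE, a kinesin that moves chromosomes along microtubules, had log2 fold changes of -2.90 ± 0.35 and -2.59 ± 0.43. Their errors were the widest of the 35, since the non-induced libraries held 17.2, 32.3 and 51.3 CPM of CENPE and 74.2, 125.1 and 188.9 CPM of CENPF. ZWINT, which links the outer kinetochore to the ROD, ZW10 and ZWILCH complex, went from 55.2, 52.6 and 52.9 to 17.8, 19.2 and 19.7 CPM, a log2 fold change of -1.50 ± 0.08. ZWILCH was at 28.8, 41.6 and 46.4 CPM in non-induced and 30.2, 28.9 and 29.5 CPM in induced libraries. One non-induced library lay just under the 3 induced ones and the others above them, and the log2 fold change of -0.40 ± 0.22 had an adjusted p of 0.141. SPDL1, the adaptor that recruits dynein to kinetochores, was at 25.8, 34.1 and 48.8 CPM against 46.5, 50.97 and 40.6 CPM. These groups overlapped, and its log2 fold change of 0.34 had a 95% interval from −0.27 to 0.96 and an adjusted p of 0.333. With an offset for the GC content and length of each gene's transcripts, NSL1 and ZWILCH were also called lower, with adjusted p of 0.00409 and 0.00017, and MIS12 and SPDL1 were not.

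BUB3, a spindle checkpoint protein that also binds outside mitosis to other partners, was at 137.2, 141.6 and 145.1 CPM in non-induced and 115.6, 110.3 and 118.4 CPM in induced libraries. It fell by 0.30 ± 0.06 on the log2 scale, with an adjusted p of 0.002, the smallest fall among the 31 genes called.

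All 3 genes of the chromosomal passenger complex fell. BIRC5 (survivin), the subunit that targets the complex to centromeres, was at 73.5, 64.6 and 61.8 CPM in non-induced and 6.67, 6.95 and 8.76 CPM in induced libraries, a log2 fold change of -3.15 ± 0.15 with an adjusted p of 5.1e-09. CDCA8 (borealin), its partner in targeting, went from 51.2, 46.03 and 44.4 to 5.68, 6.56 and 6.42 CPM, with -2.92 ± 0.10. INCENP, the scaffold that binds the kinase AURKB, fell less, by 1.30 ± 0.08. CDCA8 had the highest level per length of these genes in non-induced cells, while INCENP had it in the 3 groups given 4OHT, with 3.97 against 2.52 CPM per kb in induced cells.

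**Figure D3:**
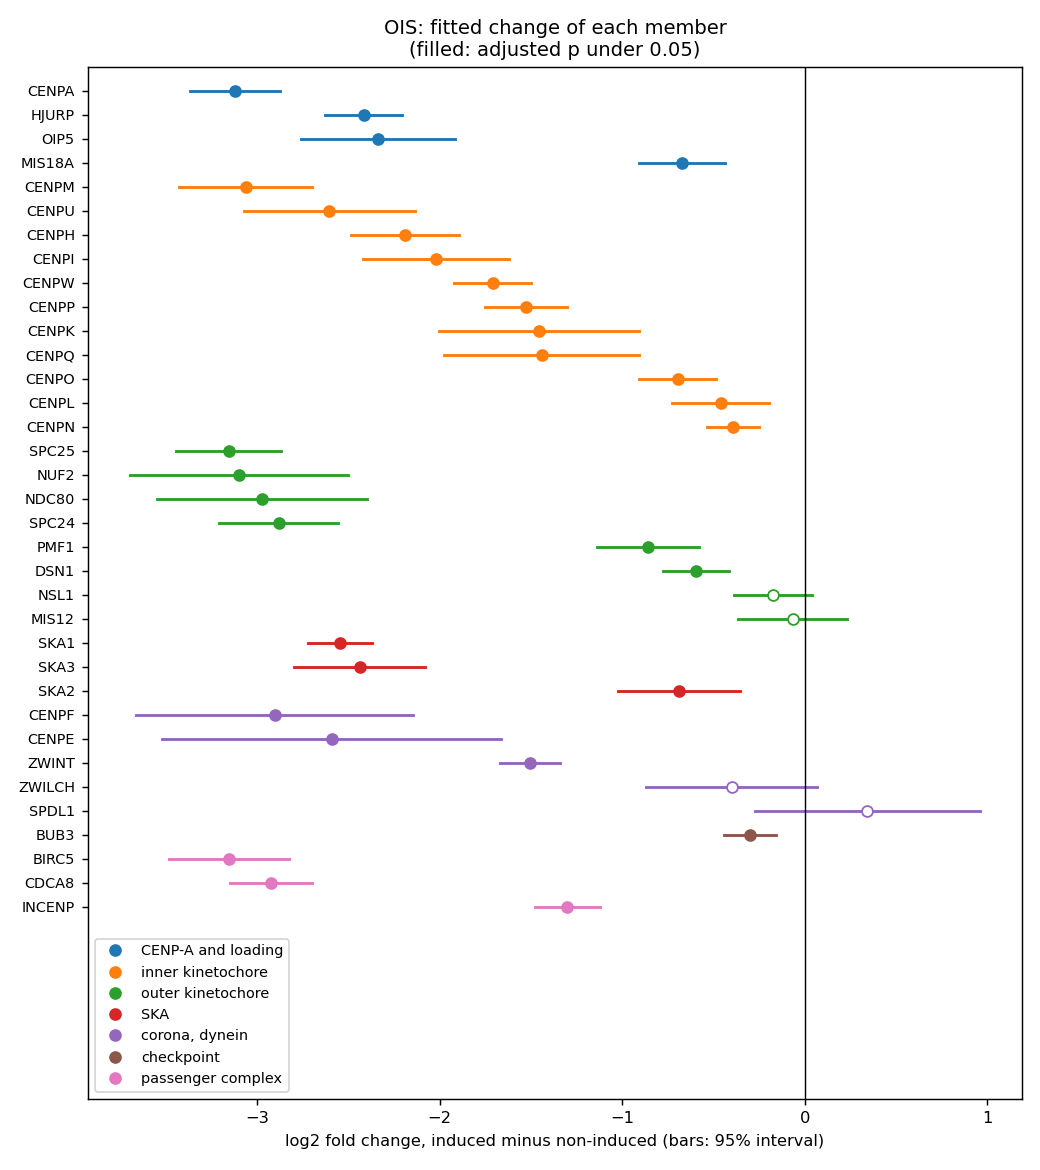
Fitted log2 fold change of each of the 35 genes in induced against non-induced cells, with the 95% interval, coloured by role. The 31 filled points passed an adjusted p of 0.05 and lie between −3.16 and −0.30, and the 4 open points are MIS12, NSL1, ZWILCH and SPDL1.

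The order of the genes by level per length differed between the groups. In non-induced cells ZWINT stood first of the 35 at 22.5 ± 0.606 CPM per kb (SD, n = 3), followed by CDCA8 at 19.1 ± 1.44, BIRC5 at 17.5, BUB3 at 17.0 ± 0.479 and CENPW at 16.9 ± 0.624. The libraries of the neighbours CDCA8 and BIRC5 overlapped, as did those of BIRC5 and BUB3 and those of BUB3 and CENPW. In induced cells BUB3 stood first at 13.8 ± 0.494, followed by SPDL1 at 9.64, SKA2 at 9.02 ± 0.463 and ZWINT at 7.95 ± 0.414. BIRC5 and CDCA8 were at ranks 17 and 15, with 1.95 and 2.52 ± 0.190 CPM per kb. The libraries of SPDL1 and SKA2 overlapped in induced cells. SPDL1 moved from rank 17 to rank 2 and MIS12 from rank 25 to rank 11. CENPP was last in both groups, at 0.965 and 0.333 CPM per kb.

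The windows around the transcription start are shown for the 3 genes with the largest falls that have an entry in the RefSeq table of promoters (build GRCh38.p14), and for MIS12 and SPDL1, which did not fall and of whose 2 starts the first listed is shown. Of the 35 genes, 29 had an entry. Each run gives the 250 bases before and the first 25 bases after the start, 5′ to 3′ on the strand of the gene. Capitals mark matches on either strand to the cell cycle genes homology region (CHR, searched as TTTGAA or TTCGAA), the CCAAT box (CCAAT), and E2F-type sites (TTTGGCGC, TTTCCCGC or TTCCCGCC, of which the last 2 can overlap). CHR and E2F-type sites are elements through which many cell cycle promoters are known to be repressed in resting cells, and the CCAAT box, bound by the activator NF-Y, is common in late cell cycle promoters. SPC25 lies on the minus strand at chr2:168890406-168890680, CENPA on the plus strand at chr2:26785806-26786080, NUF2 on the plus strand at chr1:163321704-163321978, MIS12 on the plus strand at chr17:5486124-5486398 and SPDL1 on the plus strand at chr5:169583523-169583797.
SPC25: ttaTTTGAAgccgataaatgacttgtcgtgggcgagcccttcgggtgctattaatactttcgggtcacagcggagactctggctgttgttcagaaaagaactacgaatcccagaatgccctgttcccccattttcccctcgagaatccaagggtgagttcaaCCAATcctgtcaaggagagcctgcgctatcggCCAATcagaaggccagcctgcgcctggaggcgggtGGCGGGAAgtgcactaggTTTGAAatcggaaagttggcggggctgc
CENPA: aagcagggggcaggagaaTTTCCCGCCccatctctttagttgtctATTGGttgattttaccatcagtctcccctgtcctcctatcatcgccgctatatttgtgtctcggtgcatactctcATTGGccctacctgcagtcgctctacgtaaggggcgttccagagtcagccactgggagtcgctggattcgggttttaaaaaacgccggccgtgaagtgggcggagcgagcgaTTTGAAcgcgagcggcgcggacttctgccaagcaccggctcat
NUF2: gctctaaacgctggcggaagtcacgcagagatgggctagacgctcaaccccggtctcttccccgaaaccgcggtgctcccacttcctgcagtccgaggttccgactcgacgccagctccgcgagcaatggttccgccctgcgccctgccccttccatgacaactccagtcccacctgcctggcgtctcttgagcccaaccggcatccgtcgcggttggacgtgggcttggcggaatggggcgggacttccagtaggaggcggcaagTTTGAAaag
MIS12: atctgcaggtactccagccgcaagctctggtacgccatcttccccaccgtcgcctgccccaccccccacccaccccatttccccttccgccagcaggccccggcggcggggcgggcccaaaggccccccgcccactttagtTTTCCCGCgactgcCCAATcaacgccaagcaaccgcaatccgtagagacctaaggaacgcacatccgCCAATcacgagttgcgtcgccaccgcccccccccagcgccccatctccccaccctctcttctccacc
SPDL1: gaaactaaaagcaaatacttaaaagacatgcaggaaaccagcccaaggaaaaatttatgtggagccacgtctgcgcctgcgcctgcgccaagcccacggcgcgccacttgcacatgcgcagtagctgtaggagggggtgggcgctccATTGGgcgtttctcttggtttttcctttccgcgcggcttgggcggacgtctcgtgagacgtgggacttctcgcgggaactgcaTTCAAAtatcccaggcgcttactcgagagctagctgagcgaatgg

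Positions are those of the first base of a match, counted from the start, with −1 for the base before it. SPC25 held CHR matches at −247 and −3, CCAAT boxes at −88 and −56 and an E2F-type match at −21. In CENPA the CHR match began at −18, CCAAT boxes at −205 and −130 and overlapping E2F-type matches at −232 and −231. In NUF2 the CHR match began at 17, with no CCAAT box or E2F-type match in the window. MIS12 held CCAAT boxes and an E2F-type match but no CHR match, and SPDL1, which did not fall, held both a CHR match and a CCAAT box. The windows of NSL1 and ZWILCH, which also did not pass the test in OIS, are not shown. NSL1 held none of these matches and ZWILCH only a CCAAT box. In the full windows of 300 bases, 16 of the 29 genes (55.2%) held a CHR match, against 19.5% of 27305 genes with a window. The CCAAT box was found in 20 of 29 (69.0%) against 39.7%, an E2F-type match in 6 of 29 (20.7%) against 5.50%, and a CHR match together with a CCAAT box in 11 of 29 (37.9%) against 7.85%. Of the 14 genes with a window that were lower by more than 2 on the log2 scale, 10 held a CHR match. Of the other 15, 6 did. The CCAAT box went the other way, with 8 of the 14 and 12 of the 15. An E2F-type match was held by 4 and 2, and a CHR match together with a CCAAT box by 6 and 5. These differences were not tested. A gene with several starts was counted as holding a motif where any of its windows did. These matches describe letters in a window, and no binding was measured here.

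The other 28 genes of a list of centromere, kinetochore and checkpoint genes were read beside these 35. In OIS 17 of the 28 fell, where 26.1% of all genes were called lower, and 1 rose, where 24.8% were called higher, with a median log2 fold change of −0.93. The largest falls were those of PLK1 (-3.07 ± 0.13) and AURKB (-2.93 ± 0.11), kinases that act at the centromere in mitosis, and of KIF2C (-2.92 ± 0.10), a kinesin that takes microtubule ends apart. NDEL1, a dynein regulator with roles outside mitosis, was the gene that rose, from 81.7, 75.8 and 75.8 to 105.4, 110.7 and 107.7 CPM (log2 fold change 0.47 ± 0.06). CENPB, CENPC, CENPT, CENPS, CENPX, ZW10, MAD1L1, CLASP1, CLASP2 and NDE1 did not pass the test. CENPC, the inner kinetochore scaffold that connects CENP-A to the MIS12 complex, was at 5.84, 10.5 and 13.6 CPM in non-induced and 6.37, 6.38 and 5.67 CPM in induced libraries, groups that overlapped.

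The comparisons of the shRNA groups with induced cells ask whether XPO7 depletion changed these genes in cells with active RAS. Both comparisons use the same 3 induced libraries, so their values are set side by side and no overlap between them is read as a result. With shXPO7_3, 0 of the 35 genes were called by edgeR's quasi-likelihood test, which called 0.124% of all genes. At an unadjusted p under 0.05 there were 6 of the 35, against 6.41% of all genes, all 6 with a higher fitted level, and DESeq2 called 1, BIRC5, against 0.576% of all genes. The fitted change was positive in 29 of 35 genes, against 48.9% of all genes, with a median of 0.18 against −0.0031. In 11 genes every shXPO7_3 library lay above every induced one, against 7.46% of all genes, and in 0 genes below, against 7.15%. The median over the 35 genes of the log2 ratio to the induced mean was 0.04 in replicate T, 0.27 in replicate A and 0.17 in replicate B.

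The smallest p-values with shXPO7_3 were those of BIRC5, CDCA8 and CENPP. BIRC5 was at 6.67, 6.95 and 8.76 CPM in induced and 13.01, 10.99 and 9.47 CPM in shXPO7_3 libraries. Its log2 fold change was 0.57 ± 0.15, with an unadjusted p of 0.00214 and an adjusted p of 0.24. CDCA8 was at 5.68, 6.56 and 6.42 against 9.001, 7.46 and 7.89 CPM, with 0.38 ± 0.10 and an adjusted p of 0.268. CENPP, of the CENP-O, P, Q and U assembly, was at 3.39, 2.84 and 3.55 against 4.12, 4.02 and 3.91 CPM, with 0.29 ± 0.11 and an adjusted p of 0.564. In each of these 3 genes the libraries of the groups did not overlap. The levels remained far under those of non-induced cells, where BIRC5 was at 73.5, 64.6 and 61.8 CPM.

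With shXPO7_5, 1 of the 35 genes was called, CDCA8, where the test called 0.589% of all genes. CDCA8 was at 9.97, 8.88 and 8.79 CPM in the shXPO7_5 libraries, all of them above the induced 5.68, 6.56 and 6.42 CPM. It rose by 0.57 ± 0.10 on the log2 scale, with an adjusted p of 0.0324. The call was lost when induced replicate T, A or B or shXPO7_5 replicate T or B was left out, or when only these 2 groups were fitted, with adjusted p of up to 0.172. BIRC5 was at 12.6, 10.1 and 12.8 CPM, again above every induced library, with 0.66 ± 0.15 and an adjusted p of 0.0685. CENPA was at 1.89, 2.08 and 1.69 CPM against 1.42, 1.38 and 1.35 CPM, with 0.45 ± 0.13 and an adjusted p of 0.124. INCENP, the third passenger complex gene, was at 21.1, 18.1 and 21.3 CPM against 17.8, 17.4 and 18.1 CPM, with 0.18 ± 0.08 and an adjusted p of 0.228. Over the 35 genes, 19 had a positive fitted change, against 50.7% of all genes, and the median was 0.025 against 0.0058. Every shXPO7_5 library lay above every induced one in 10 genes, against 14.2% of all genes, and below in 4, against 12.6%. At an unadjusted p under 0.05 there were 12, of which 11 were higher, against 21.6% of all genes. DESeq2 called 2, BIRC5 and CDCA8, against 2.79% of all genes. Without shXPO7_5 replicate A the count was 8 (CDCA8, BIRC5, SPC24, PMF1, CENPO and INCENP higher, NSL1 and ZWILCH lower), where 23.0% of all genes were called.

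Of the other 28 centromere, kinetochore and checkpoint genes, edgeR called 0 with shXPO7_3, where it called 0.124% of all genes. At an unadjusted p under 0.05 there were 5, against 6.41% of all genes, and DESeq2 called 0, against 0.576%. PLK1 and AURKB were called higher with shXPO7_5 in edgeR, which called 0.589% of all genes there. An unadjusted p under 0.05 was reached by 3 of the 28 with shXPO7_5, against 21.6% of all genes. DESeq2 called 3 higher with shXPO7_5, against 2.79% of all genes called in either direction. An offset for GC content and length in edgeR gave 4 called higher with shXPO7_3 (1.5% of all genes) and 5 with shXPO7_5 (1.6%). AURKB, the kinase of the passenger complex, was at 3.17, 3.62 and 3.23 CPM in induced, 4.99, 4.95 and 3.99 with shXPO7_3 and 5.32, 5.07 and 5.10 with shXPO7_5. Its log2 fold changes were 0.47 ± 0.11 (adjusted p = 0.167) and 0.63 ± 0.11 (adjusted p = 0.0285). PLK1 was at 6.12, 7.90 and 7.93 CPM in induced, 11.2, 10.1 and 8.83 with shXPO7_3 and 13.1, 10.9 and 12.2 with shXPO7_5, and its change with shXPO7_5 was 0.72 ± 0.12 (adjusted p = 0.0265). Both calls were lost when induced replicate T, A or B or shXPO7_5 replicate T or B was left out, or when only these 2 groups were fitted, with adjusted p of up to 0.128 for PLK1 and 0.155 for AURKB. MKI67 was at 36.4, 36.5 and 34.7 and 35.3, 38.9 and 32.2 CPM with the shRNAs, against 26.8, 30.3 and 25.5 CPM in induced cells, with adjusted p of 0.167 and 0.0855. The 7 proliferation genes did not move alike: 6 had a positive fitted change with shXPO7_3 and 4 with shXPO7_5, where TOP2A had -0.29, CDK1 -0.24 and PCNA -0.11. Of these 7, edgeR called 0 with either shRNA (2 and 3 at an unadjusted p under 0.05, all higher), and DESeq2 called 1 and 2 higher. The part of the proliferation genes in the values of the passenger complex genes was not tested.

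**Figure D4:**
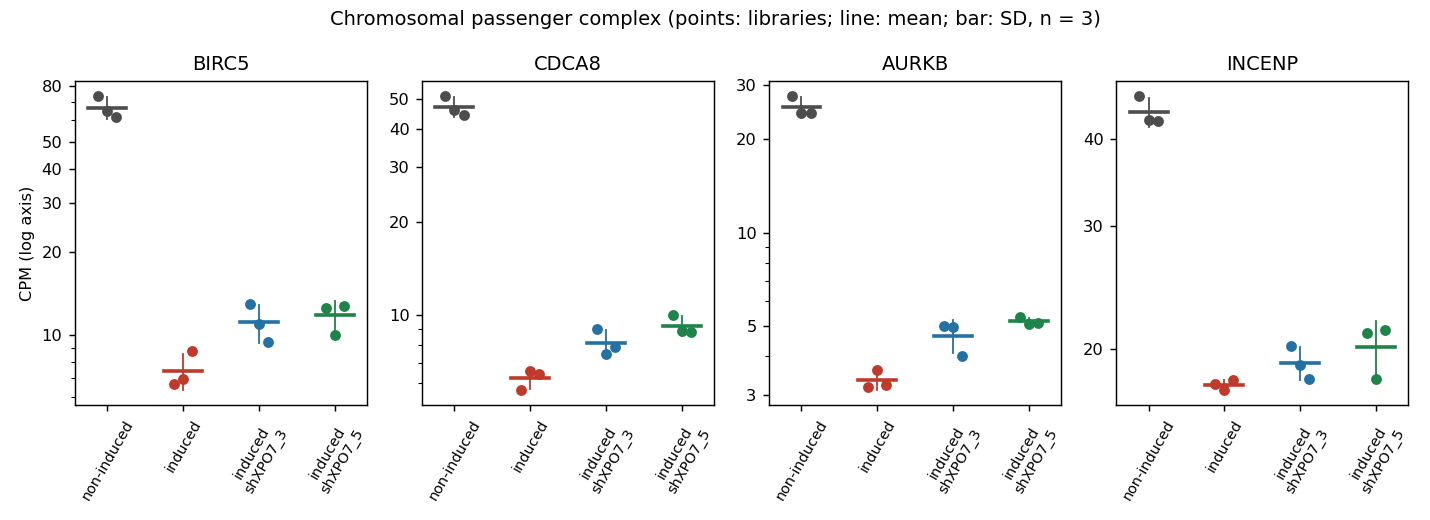
CPM on a log axis of BIRC5, CDCA8, AURKB and INCENP in each library of the 4 groups, with a line for the mean and a bar for the SD (n = 3). In BIRC5, CDCA8 and AURKB the libraries of both shRNAs lie above the 3 induced libraries and far under the non-induced ones.

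The values with shXPO7_5 moved with the base composition of the transcripts, and those with shXPO7_3 did so much less. The transcripts of the 35 genes had a median GC content of 43.0%, from 33.9% to 59.9%, against 48.8% over all genes tested. Across these genes, Spearman's rho between GC content and the fitted change was 0.69 for shXPO7_5, as over all genes (0.69), and 0.15 for shXPO7_3. These are correlations across genes, which share libraries and are not independent replicates. With shXPO7_5 the 17 genes under the median GC content had a median change of −0.077, with 6 positive, and the other 18 had a median of 0.23, with 13 positive. Single libraries of 1 group differed in the same way: rho between GC content and the log2 ratio to the group's own mean was 0.85, −0.49 and −0.85 in the non-induced libraries, −0.17, −0.51 and 0.47 in the induced ones, 0.90, −0.73 and −0.70 with shXPO7_3, and 0.55, −0.78 and 0.75 with shXPO7_5. CENPE, among the genes with the lowest GC content, was at 6.29, 6.31 and 4.28 CPM in induced, 4.14, 7.97 and 7.38 with shXPO7_3 and 2.26, 6.16 and 2.65 with shXPO7_5, with replicate A the highest library in both shRNA groups.

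With the offset for GC content and length, the pattern across the 35 genes changed. For shXPO7_5 the fitted change was then positive in 28 of 35 genes, with a median of 0.14, and the medians of the 17 and 18 genes were 0.16 and 0.11. For shXPO7_3 it stayed positive in 29 genes, with a median of 0.17. Under the offset 2 genes were called with shXPO7_3, against 0 without it, and 4 with shXPO7_5, against 1 without it. The fits with the offset called 2.6% and 3.36% of all genes, against 0.124% and 0.589% without it. BIRC5 and CDCA8 were called in both comparisons, which share the 3 induced libraries, so this overlap is not read as a result. The fits with the offset were not repeated with single libraries left out. BIRC5 had 0.55 (adjusted p = 0.0101) and 0.54 (adjusted p = 0.0119) in edgeR with the offset, for shXPO7_3 and shXPO7_5. CDCA8 had 0.38 (adjusted p = 0.0181) and 0.47 (adjusted p = 0.00548) in the same fits. Of the 3 passenger complex genes, 3 kept a positive fitted change with shXPO7_3 and 2 with shXPO7_5, where INCENP did not. CENPW and SKA3 were called with shXPO7_5 only under the offset, at 0.47 and 0.40. In OIS the offset moved the median of the 35 genes from −1.71 to −1.89. Whether base composition accounts for the values without the offset was not tested.

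**Figure D5:**
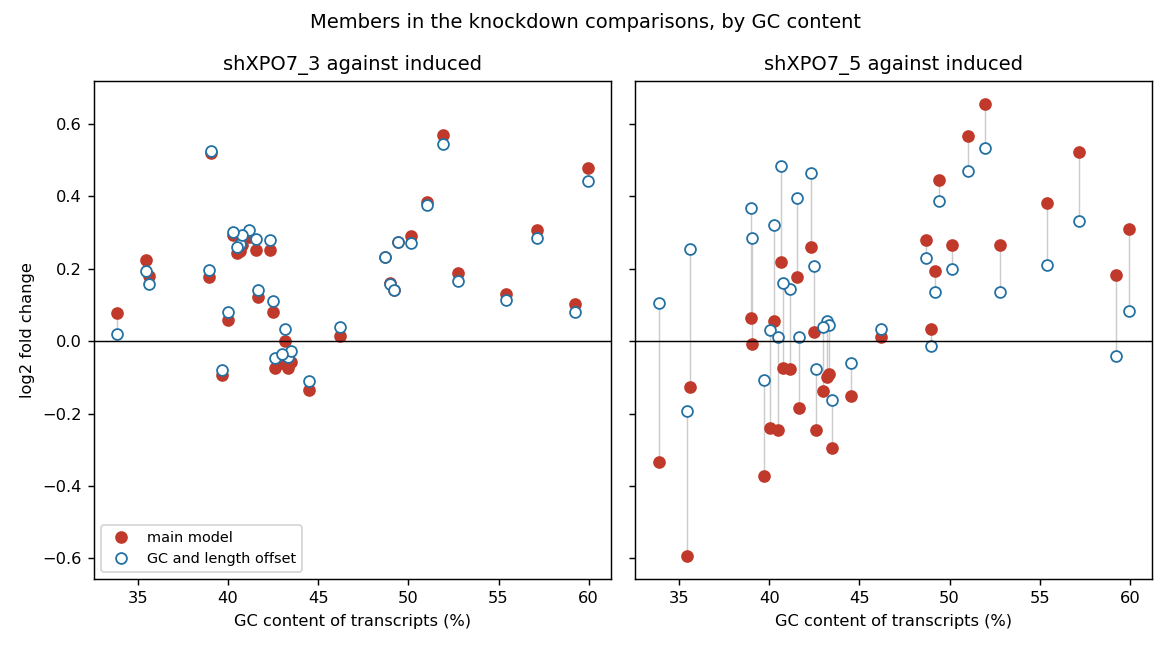
Log2 fold change of the 35 genes against the GC content of their transcripts, for shXPO7_3 and shXPO7_5 against induced cells, from the model without (filled) and with (open) an offset for GC content and length, joined for each gene by a line. With shXPO7_5 the filled points rise from left to right, most genes under 45% GC move up with the offset and most above 48% move down. With shXPO7_3 filled and open points nearly coincide.

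The direct comparison of the shRNAs asks whether they differed. In shXPO7_5 against shXPO7_3, 0 of the 35 genes were called by edgeR's quasi-likelihood test, which called 0.0131% of all genes, and DESeq2 called 0 of them. At an unadjusted p under 0.05 there was 1 gene, against 11.9% of all genes. This was NSL1, at 18.6, 21.1 and 21.7 CPM with shXPO7_3 and 17.01, 19.8 and 15.4 with shXPO7_5 (log2 fold change -0.24 ± 0.10, adjusted p = 0.388). SKA2, at 23.8, 32.3 and 32.3 against 22.1, 29.3 and 20.7 CPM, and CENPI, at 5.76, 7.49 and 6.86 against 4.21, 6.52 and 4.86 CPM, had the next smallest p, and in all 3 genes the libraries of the groups overlapped. The 95% interval of the difference was −0.037 to 0.40 for CDCA8 and −0.23 to 0.40 for BIRC5, so the data do not show that the shRNAs acted alike on these genes.

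Compared with non-induced cells, the shRNA groups kept the low levels of most of these genes. With shXPO7_3 31 of 35 genes were lower at the threshold, where 26.2% of all genes were lower, and the median was −1.46. MIS12, NSL1, ZWILCH and SPDL1 did not pass the test. With shXPO7_5 33 of 35 were lower, where 27.0% of all genes were lower, and the median was −1.77. There MIS12 and SPDL1 did not pass the test, while NSL1 (-0.47 ± 0.10) and ZWILCH (-0.77 ± 0.22) did. BIRC5 remained at -2.58 ± 0.15 and -2.50 ± 0.15 and CDCA8 at -2.54 ± 0.10 and -2.36 ± 0.10 against non-induced cells. The ratio of the NDC80 complex to the MIS12 complex per length was 0.226, 0.249 and 0.237 with shXPO7_3 and 0.203, 0.243 and 0.220 with shXPO7_5. All 6 values lay above the 3 of the induced libraries and under the 3 of the non-induced ones, and this too is given without a test. With shXPO7_5 the NDC80 complex mean was 0.810, 1.004 and 0.833 CPM per kb and overlapped the induced 0.734, 0.840 and 0.805. The MIS12 complex mean there was 3.998, 4.135 and 3.784, under every induced library (4.406, 4.314 and 4.472). With shXPO7_3 the NDC80 complex mean, 0.854, 1.109 and 1.042, lay above every induced library, and the MIS12 complex means overlapped.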

How the data were processed

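RNA was sequenced from 12 libraries of IMR90 ER:RAS cells, made with a stranded mRNA kit, in 4 groups of 3 taken from the sample titles. The authors deposited read counts per gene, without normalization, in a table of 62069 genes and 92 spike-in entries, all of them at 0 and not used. Per the submitters' notes, the tools were featureCounts 1.18.0, TopHat2 2.0.11 and CASAVA 1.8.4 on GRCh37 (hg19). Which annotation and strand setting were used, and how multiply aligned reads were counted, is not given in the sources used here. Genes that overlap may therefore share counts. A symbol was found for 49517 genes (99.49% of all counts).

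Tests were run with edgeR 4.0.16 in R 4.3.3. Genes were kept by filterByExpr (15284), libraries were scaled by TMM, and 1 quasi-likelihood model with the 4 groups was fitted to all libraries, since the methods text read here names no test for these counts. The Benjamini-Hochberg adjustment covered all genes tested, and the threshold was 0.05. CPM are TMM-scaled, and levels per length divide them by the exon length of GENCODE release 29 (GRCh38, matched by identifier). Intervals cover 95%. Total counts of 28534141 to 60397769 per library set the counting error, and the pairs of libraries within a group differed by more than it (chi-square of 4.49 to 59.3 per gene), so that each library was counted once.

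Alternatives tried were upper-quartile and RLE factors, no filter, a filter of 1 CPM in 6 libraries, a replicate block, a fit to the 2 groups compared, DESeq2 1.42.0, each library left out in turn, a log2 fold change of at least 1 in OIS, and an offset for GC content and length. The offset was a spline with 5 degrees of freedom per library, fitted without the groups, and 97.3% of the genes tested had both values. The fit was tested on simulated counts. The 35 genes, the other lists and the tests were chosen with earlier results of these data known. Values in every library are given for the 6 genes with the largest falls in OIS, those that did not pass the test there, the gene with the highest level per length in each role group, any gene called in a knockdown comparison and the 3 with the smallest p in each. INCENP, CENPE and CENPF were added after their values were seen, as was CENPC.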

Additional observations from a re-analysis of the deposited data

How the results depend on the processing

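In OIS, 31 genes were called, all of them lower. The 10 alternatives gave 23 (a log2 fold change of at least 1) to 34 calls. The 34, with the offset and the replicate block, were 33 lower and 1 higher. Leaving out each library in turn gave 31 to 32, all lower. The median log2 fold change of −1.71 became −1.89 with the GC and length offset and −1.94 with the offset and the replicate block, and lay between −1.77 and −1.62 without single libraries. Upper-quartile factors moved the median of all genes to −0.10. OIP5 was not tested under the filter of 1 CPM in 6 libraries, and the other 30 genes were called in all 15 refits.

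For shXPO7_3 against induced cells, 0 genes were called, and 1 with DESeq2, 2 with the GC and length offset and 3 with the offset and the replicate block. The same fits called 19, 88, 397 and 489 of all 15284 genes tested. Leaving out each library gave 0 throughout. The median of 0.18 lay between 0.11 and 0.24 without single libraries. For shXPO7_5, the 1 call became 2 without a filter, 2 with DESeq2 (2.79% of all genes), 4 with the offset, 5 with the offset and the replicate block, and 0 in a fit to the 2 groups. Of all 15284 genes tested, 90 were called at first, 514 with the offset and 1020 with the offset and the replicate block. Without a filter 217 of 31672 genes were called, and in the fit to the 2 groups 10 of 14503. Leaving out each library gave 0 to 8. The 8 came without shXPO7_5 replicate A, where 23.0% of all genes were called, and the median, 0.025, ran from −0.02 to 0.10. The cause of these changes was not tested.

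Counts without single libraries were 0 to 0 for shXPO7_5 against shXPO7_3, 31 to 32 for shXPO7_3 against non-induced and 33 to 34 for shXPO7_5 against non-induced. The replicate letters were not taken to pair the libraries. The correlation of deviations for the same letter ran from −0.23 to 0.59 and was over 0.1 in 8 of 15 pairs. Its median was 0.11, against −0.077 for different letters, which does not settle whether the letters are pairs. Letter C occurs only in the non-induced group, so under the replicate block that library does not inform the comparisons. The replicate block alone gave 32, 0 and 1 calls in OIS and with the 2 shRNAs, and SPDL1 was the call added in OIS, higher by 0.65 on the log2 scale.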
